A study of Mus musculus with 10 samples.

Results

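The 10 genes described here handle long-chain fatty acids at their entry into liver cells: the membrane receptor Cd36 (ENSMUSG00000002944), the nuclear receptor Pparg (ENSMUSG00000000440), the binding proteins Fabp1 (ENSMUSG00000054422), Fabp2 (ENSMUSG00000023057) and Fabp4 (ENSMUSG00000062515), the transport proteins Slc27a2 (ENSMUSG00000027359) and Slc27a4 (ENSMUSG00000059316), and the acyl-CoA synthetases Acsl3 (ENSMUSG00000032883), Acsl4 (ENSMUSG00000031278) and Acsl5 (ENSMUSG00000024981). They were taken by gene symbol from the deposited expression table of 29657 genes, and all 10 were found. The table held bulk liver RNA-seq of C57BL/6 mice that ate CDAHFD, a high-fat diet that lacks choline and defines its amino acids, for 8 weeks. In the control group, 5 libraries came from mice given AAV8-NC, an adeno-associated virus used as a negative control, with the genotype given as WT. In the other group, 5 libraries came from mice given AAV8-TBG-galectin-3 into a vein, a virus with a promoter active in hepatocytes that the labels name as a liver knockdown of galectin-3; the insert is not described. No group was fed another diet or left without virus, and the labels give neither age nor sex. The labels number the replicates but do not say whether each is 1 mouse, so the p-values measure the spread between these libraries.

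Long-chain fatty acids reach the hepatocyte bound to albumin or released from lipoproteins, and enter partly through membrane proteins such as CD36 and the fatty acid transport proteins of the Slc27a family. Inside the cell, fatty acid binding proteins carry them through the cytosol, and acyl-CoA synthetases of the Acsl family join them to coenzyme A, which traps them and allows their use in triglycerides, phospholipids or oxidation. PPARγ, encoded by Pparg, is a nuclear receptor that binds fatty acids and pairs with RXR at direct repeats in DNA; Cd36 and Fabp4 are among its textbook targets, and its level is known to rise in fatty mouse liver. PPARα, the main receptor of this kind in hepatocytes, acts on many of the same genes, Fabp1 among them.

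Lgals3 (ENSMUSG00000050335) encodes galectin-3, the target that the labels name. It stood at 105, 73.9, 61.6, 71.0 and 42.2 FPKM (sequenced fragments per length of transcript, scaled to the size of the library) in control libraries 1 to 5 and at 67.4, 90.8, 85.2, 85.6 and 41.9 FPKM in the libraries of the other group. The ranges overlapped almost wholly, with a log2 fold change of 0.075 (SE 0.25, limma adjusted p = 0.856) and a 95% interval of the fold from 0.722 to 1.54. Whole-liver RNA therefore did not show a lower targeted transcript, and each library of that group is called labelled knockdown below. Lgals3 is also among the lipid-associated macrophage markers read below, and bulk RNA mixes cell types. A change in hepatocytes alone therefore cannot be read from these values, and the labels are not checked by them. Libraries had 21653 to 23079 genes above 0. Labelled knockdown library 1 stood apart, with 21.7% of its summed FPKM from mitochondrial genes, where the other 9 libraries had 13.0 to 16.9%; it also had the highest summed FPKM and the lowest values of Acsl4, Acsl5 and Slc27a4. Without it, the log2 fold changes of these 3 genes were -0.56, -0.43 and -0.27 (limma adjusted p = 0.0402, 0.0301 and 0.0605). The slope of expression on transcript length also separated the groups, from 0.0189 to 0.0463 in the controls and from -0.0586 to -0.0070 in the labelled knockdown libraries (log2 units per doubling of length, as departures from gene means), so long transcripts were lower and short ones higher in the labelled knockdown group.

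Of the 10 genes, 4 fell in the labelled knockdown libraries and 0 rose at a limma adjusted p under 0.05, on log2(FPKM + 1). The 4 were Acsl4, Acsl5, Pparg and Slc27a4. Over all 13471 genes tested, 16.8% were called in either direction, 9.65% as lower (1300 genes) and 7.13% as higher (960 genes); median-of-ratios scaling turned that split to 1060 lower and 1240 higher, and quantile normalization to 1181 lower and 1165 higher. All 10 passed the filter on low values, and their median log2 fold change was -0.28, against -0.035 for all genes tested. By family, 1 of 2 transport proteins, 2 of 3 acyl-CoA synthetases and 0 of 3 binding proteins were called; differences between genes of a family were not tested. In bulk tissue, fewer cells of a type and less RNA per cell cannot be told apart.

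**Figure D1:**
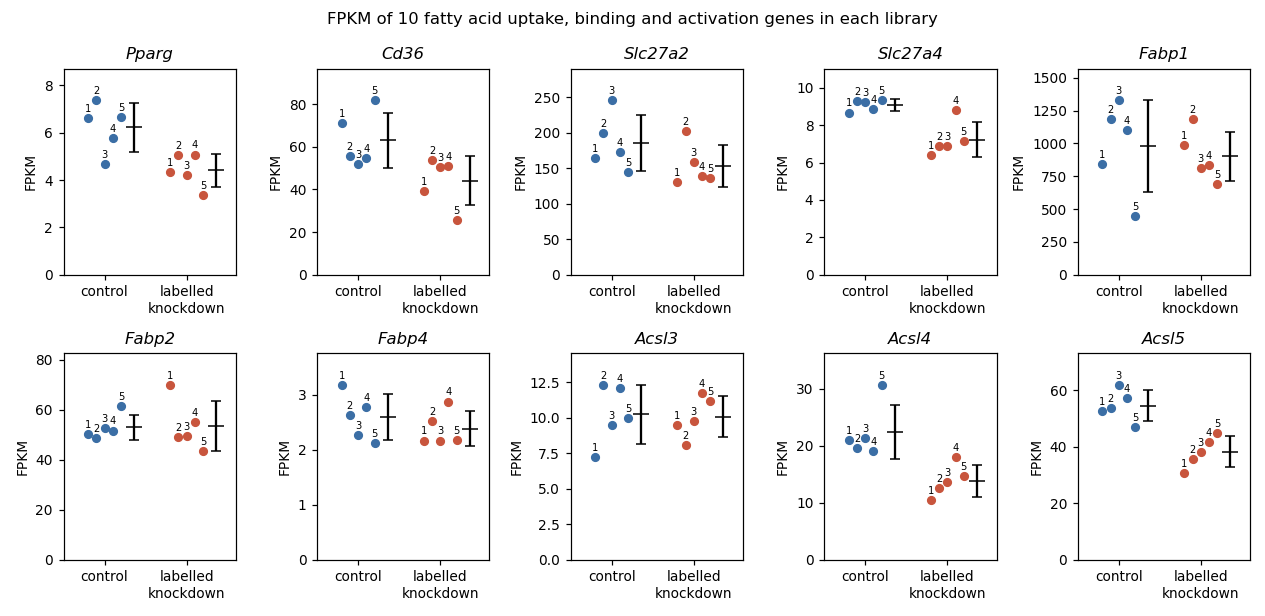
FPKM (linear axes from 0) of each of the 10 genes in each library, with points numbered by library in 5 control (blue) and 5 labelled knockdown (red) libraries and the group mean ± SD beside them. Acsl4 and Acsl5 have no overlap between the groups, while the points of Fabp1, Fabp2 and Acsl3 lie over each other.

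**Figure D2:**
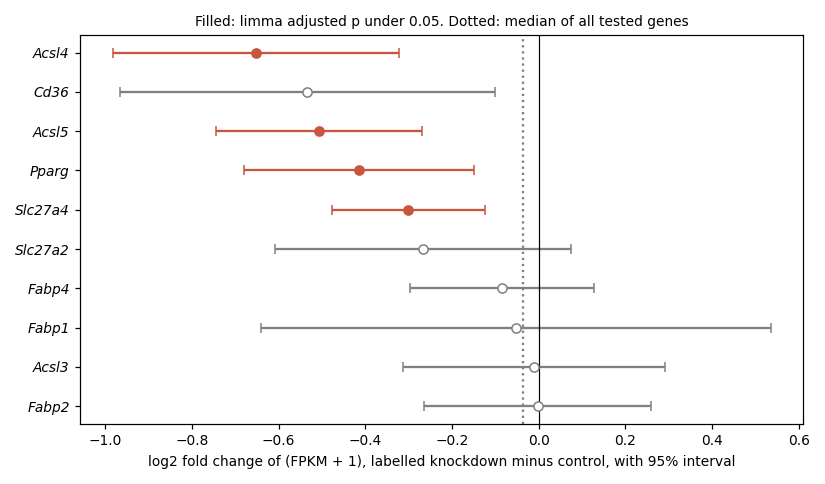
Log2 fold change of FPKM + 1, labelled knockdown minus control, with its 95% interval from limma, for the 10 genes; filled points have an adjusted p under 0.05 and the dotted line is the median of all genes tested, -0.035. Acsl4 has the lowest estimate, -0.65, and the intervals of Slc27a2, Fabp4, Fabp1, Acsl3 and Fabp2 include 0.

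FPKM is scaled to transcript length, so levels can be set roughly side by side between genes of a group. The slope on length differed between the groups, as given above, and the orders below were not corrected for it. In the control libraries, Fabp1 was highest by mean FPKM (981 ± 347, SD, n = 5), followed by Slc27a2 (185 ± 39.2). Cd36, Acsl5 and Fabp2 came next at 63.1 ± 12.9, 54.4 ± 5.55 and 53.0 ± 5.08 FPKM, and the ranges of neighbours in that order overlapped. Acsl4 lay below them, then Acsl3 and Slc27a4 with overlapping ranges, then Pparg, and Fabp4 was lowest at 2.59 ± 0.422 FPKM. In the labelled knockdown libraries, Fabp1 and Slc27a2 stayed on top and Pparg and Fabp4 at the bottom. In between, Fabp2 had the highest mean, 53.4 ± 10.1 FPKM, ahead of Cd36 and Acsl5, with overlapping ranges. The range of Acsl4 now overlapped that of Acsl3. By longest annotated transcript, Fabp2 (965 bases) is shorter than Cd36 (3399) and Acsl5 (4243), and Acsl3 (3950) is shorter than Acsl4 (5280). The part of length in this change of order was not tested.

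Acsl4 prefers arachidonic acid and other polyunsaturated fatty acids and is known for its part in lipid peroxidation and ferroptosis. It stood at 21.1, 19.6, 21.4, 19.0 and 30.7 FPKM in control libraries 1 to 5 and at 10.4, 12.6, 13.5, 18.0 and 14.7 FPKM in labelled knockdown libraries 1 to 5. All 5 labelled knockdown values lay below all control values. Control library 5 was far above the other control libraries. The means were 22.3 ± 4.76 and 13.8 ± 2.77 FPKM, and the log2 fold change was -0.65 (SE 0.15, limma adjusted p = 0.0185), a fold of 0.636 with a 95% interval of 0.506 to 0.800. Without control library 5 the log2 fold change was -0.54 (limma adjusted p = 0.0219). The exact two-sided permutation p was 0.00794, the smallest that 5 against 5 libraries can give. With no filter on low values the limma adjusted p was 0.0503.

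Acsl5, a synthetase of the endoplasmic reticulum and mitochondria that is abundant in liver and intestine, stood at 52.6, 53.7, 61.8, 57.2 and 46.9 FPKM in the control libraries. The labelled knockdown libraries had 30.7, 35.6, 38.1, 41.6 and 44.8 FPKM. The groups did not overlap, although labelled knockdown library 5 came close to control library 5. Acsl5 fell with a log2 fold change of -0.51 (SE 0.11, limma adjusted p = 0.0150), and its exact two-sided permutation p was 0.00794. Acsl4 and Acsl5 were the 2 of the 10 genes whose groups did not overlap, and among all genes tested 7.48% were lower without overlap.

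Acsl3, which sits on the endoplasmic reticulum and nascent lipid droplets, ranged from 7.24 to 12.3 FPKM in the controls and from 8.10 to 11.8 FPKM in the labelled knockdown libraries. Its log2 fold change was -0.011 (SE 0.14, limma adjusted p = 0.963), with a 95% interval of -0.31 to 0.29. Acsl1, the main long-chain synthetase of liver and outside the 10 genes, had 35.6 ± 8.29 and 32.9 ± 6.21 FPKM, with a log2 fold change of -0.10 (limma adjusted p = 0.685). The summed FPKM of Acsl1, Acsl3, Acsl4 and Acsl5 was 123 ± 11.4 in the controls and 95.0 ± 10.8 in the labelled knockdown libraries. As a share of that sum, Acsl5 made up 44.4% ± 2.64 in the controls and 40.1% ± 2.56 in the labelled knockdown libraries, and Acsl4 18.4% ± 4.65 and 14.5% ± 1.96. Acsl3 made up 8.40% ± 1.895 and 10.7% ± 1.62, and Acsl1, outside the 10 genes, 28.8% ± 3.96 and 34.7% ± 5.18. Shares of a sum are tied together, so a share can rise without a rise in the FPKM of its gene. Over the 8 shares tested, the exact permutation p of Acsl5 was 0.0317, that of Acsl4 0.0714 and that of Acsl3 0.0873. None of the 3 passed Benjamini-Hochberg adjustment, since each had an adjusted p of 0.233.

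**Figure D3:**
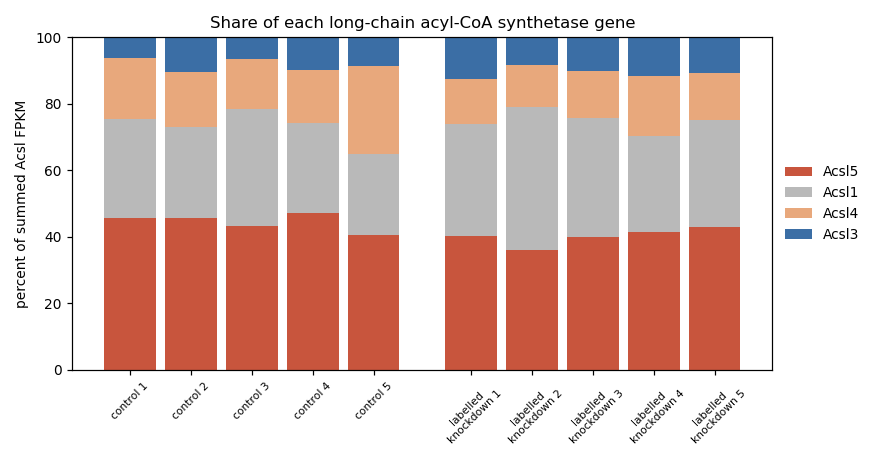
Percent of the summed FPKM of Acsl1, Acsl3, Acsl4 and Acsl5 in each library, stacked by gene from 0, for control libraries 1 to 5 and labelled knockdown libraries 1 to 5. Acsl5 is the largest part in the control libraries, with a mean of 44.4%, and Acsl4 takes 26.4% in control library 5.

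The start regions of the 2 genes that fell without overlap are shown to compare their CpG content. The windows are RefSeq promoter windows on GRCm38.p6, 250 bases before to 50 bases after the annotated start, written 5′ to 3′ on the strand of the gene, with CG dinucleotides in capitals; Acsl4 is at chrX:142390486-142390785 on the minus strand and Acsl5 at chr19:55253119-55253418 on the plus strand.
Acsl4: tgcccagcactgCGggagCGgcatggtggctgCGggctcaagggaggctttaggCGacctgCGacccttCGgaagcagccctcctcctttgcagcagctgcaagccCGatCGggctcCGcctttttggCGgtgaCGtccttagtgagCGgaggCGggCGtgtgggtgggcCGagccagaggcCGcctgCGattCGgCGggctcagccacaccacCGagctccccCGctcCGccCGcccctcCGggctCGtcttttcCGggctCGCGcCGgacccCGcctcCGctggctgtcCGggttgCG
Acsl5: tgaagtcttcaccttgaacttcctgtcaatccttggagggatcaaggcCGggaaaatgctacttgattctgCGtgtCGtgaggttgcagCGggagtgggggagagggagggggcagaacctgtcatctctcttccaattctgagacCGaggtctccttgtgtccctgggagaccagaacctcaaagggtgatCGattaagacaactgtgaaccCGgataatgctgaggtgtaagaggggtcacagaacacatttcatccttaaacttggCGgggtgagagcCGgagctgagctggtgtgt
The Acsl4 window held 33 CG dinucleotides and was 71.7% G and C, and the Acsl5 window held 9 and was 53.0% G and C. Over 32851 windows of the same length the medians were 7 and 52.7%. Acsl3, which was not called, also had 33 CG dinucleotides and 74.0% G and C.

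Slc27a4 (FATP4) is a transport protein with acyl-CoA synthetase activity, known for fatty acid uptake in intestine and skin. Its control libraries were tightly grouped at 8.67, 9.30, 9.24, 8.84 and 9.34 FPKM, and its labelled knockdown libraries had 6.42, 6.86, 6.87, 8.81 and 7.13 FPKM. In the labelled knockdown group, 4 of 5 libraries lay below every control library, and library 4 lay within the control range. Slc27a4 fell with a log2 fold change of -0.30 (SE 0.08, limma adjusted p = 0.0296; exact two-sided permutation p = 0.0159). In fits that each left out 1 library the call was lost in 7 of 10, without control library 2, 3 or 4 or labelled knockdown library 1, 2, 3 or 5, at adjusted p of 0.0527 to 0.0684. With the length trend removed the log2 fold change was -0.20 and the limma adjusted p 0.0905.

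Slc27a2 (FATP2), the most abundant transport protein here and also a very-long-chain acyl-CoA synthetase, stood at 164, 199.7, 246, 172 and 145 FPKM in the control libraries. The labelled knockdown libraries had 131, 202, 158, 139 and 136 FPKM. The ranges overlapped, and labelled knockdown library 2 was above 4 of 5 control libraries. The log2 fold change of -0.27 (SE 0.16, limma adjusted p = 0.253) did not pass, with a 95% interval of -0.61 to 0.074; without control library 3 it was -0.16 (limma adjusted p = 0.483). Slc27a5 (FATP5), the liver transport protein that also joins bile acids to coenzyme A, had 123 ± 28.5 and 95.9 ± 27.0 FPKM (limma adjusted p = 0.268). Slc27a2 made up 57.7% of the summed FPKM of the Slc27a family in the controls and 59.2% in the labelled knockdown libraries, and Slc27a4 2.92% and 2.86%; the permutation p of neither share passed (adjusted p = 0.976 for each).

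Cd36, the scavenger receptor that takes up fatty acids and oxidized lipoproteins, is made by hepatocytes, macrophages and endothelium. It stood at 71.2, 55.7, 52.0, 54.8 and 81.9 FPKM in the controls and at 39.3, 53.8, 50.3, 50.8 and 25.8 FPKM in the labelled knockdown libraries. All 5 labelled knockdown libraries were below the control mean, but libraries 2 to 4 lay beside the lower control libraries and library 2 exceeded control library 3. The log2 fold change was -0.53 (SE 0.20, 95% interval -0.97 to -0.10), and the limma adjusted p of 0.0842 did not pass. For the single gene the exact two-sided permutation p was 0.0159. Cd36 was called under 0 of 11 other settings and in 0 of 10 fits that left out a library, with adjusted p from 0.0726 to 0.230; with array weights its log2 fold change was -0.34.

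Other routes of uptake were read from 13 further genes, such as scavenger receptors, lipases and enzymes that modify CD36. Of the 12 tested, 4 fell and 0 rose, with a median log2 fold change of -0.27. Among all genes tested, 9.65% were called lower and 7.13% higher. Msr1, a scavenger receptor of macrophages, fell from 3.44 ± 0.444 to 2.45 ± 0.360 FPKM (limma adjusted p = 0.0265). Lrp1, a large endocytic receptor for lipoprotein remnants, and Zdhhc5, which attaches palmitate to CD36, fell with log2 fold changes of -0.39 and -0.30 (limma adjusted p = 0.0329 and 0.0321). In the 10 fits that left out a library, Msr1 kept its call in 5, Lrp1 in 4 and Zdhhc5 in 2, at adjusted p of up to 0.0628, 0.0758 and 0.0683. They were called under 8, 7 and 7 of 11 other settings. By longest annotated transcript, Msr1 has 3636 bases, Zdhhc5 4706 and Lrp1 14888. The share of genes called lower rose with length, as given below, and the part of length in these calls was not tested. Lpl, which frees fatty acids from lipoproteins, had 22.3 ± 6.78 and 16.5 ± 4.17 FPKM and did not pass (limma adjusted p = 0.203).

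Pparg stood at 6.63, 7.38, 4.66, 5.79 and 6.68 FPKM in the controls and at 4.33, 5.06, 4.22, 5.08 and 3.38 FPKM in the labelled knockdown libraries. The groups overlapped only through control library 3, which lay below labelled knockdown libraries 2 and 4. Pparg fell with a log2 fold change of -0.41 (SE 0.12, limma adjusted p = 0.0397; exact two-sided permutation p = 0.0238). The call was lost in 7 of 10 fits that left out 1 library, without control library 1, 2, 4 or 5 or labelled knockdown library 1, 3 or 5, at adjusted p of 0.0630 to 0.0951, and with no filter on low values (adjusted p = 0.0942).

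Among 12 other PPAR receptors, RXR partners and cofactors, all tested, 4 fell and 1 rose, with a median log2 fold change of -0.12. Over all genes tested, 9.65% were called lower and 7.13% higher. Ppara, the receptor that drives fatty acid oxidation in the fasted liver, was at 10.01, 8.32, 11.2, 8.92 and 5.90 FPKM in the controls and at 3.34, 6.84, 6.06, 4.17 and 4.07 FPKM in the labelled knockdown libraries. Only control library 5 lay within the labelled knockdown range, and Ppara fell with a log2 fold change of -0.75 (SE 0.18, limma adjusted p = 0.0224). Rxra, the main RXR partner in hepatocytes, fell without overlap from 43.9 ± 5.61 to 29.8 ± 5.29 FPKM (limma adjusted p = 0.02002, log2 fold change -0.55), although with the length trend removed its adjusted p was 0.0674. Rxrg, another RXR, rose without overlap from 1.81 ± 0.338 to 3.07 ± 0.324 FPKM (limma adjusted p = 0.00947, log2 fold change 0.54). Ncor1, a corepressor, fell without overlap from 6.76 ± 0.158 to 5.40 ± 0.471 FPKM (limma adjusted p = 0.0227). Ncoa2, a coactivator named after its values were seen because the count was small, fell from 2.85 ± 0.204 to 2.12 ± 0.301 FPKM (limma adjusted p = 0.0286). By longest annotated transcript, Rxra (4905 bases), Ncor1 (9037) and Ncoa2 (8171) belong to the longest length class described below, in which 16.6% were called lower. Ppara (3413) belongs to the middle class, in which 10.5% were. The part of length in these calls was not tested. Ppara lost its call without control library 3 or labelled knockdown library 5, and Ncor1 without control library 2 or 3, at adjusted p of up to 0.0545 and 0.0563. Ncor1 was called under 8 of 11 other settings, with an adjusted p of up to 0.135, and its log2 fold change moved from -0.28 to -0.17 with the length trend removed.

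Of 12 tested PPARγ target genes outside the 10, 1 fell and 0 rose, beside 9.65% and 7.13% of all genes tested. The median log2 fold change of these targets was -0.23. Cidec, which enlarges lipid droplets, fell from 23.1 ± 8.25 to 12.04 ± 5.74 FPKM (limma adjusted p = 0.0499, log2 fold change -0.93). It was called under 2 of 11 other settings and kept its call in 1 of 10 fits that left out a library, with adjusted p of up to 0.136.

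Fabp1, the liver fatty acid binding protein and one of the most abundant hepatocyte proteins, stood at 842, 1183, 1330.0, 1104 and 447 FPKM in the control libraries. In the labelled knockdown libraries it stood at 985, 1183, 812, 833 and 690.3 FPKM. The labelled knockdown values all lay within the wide control range, and control library 5 was lowest. Its log2 fold change of -0.053 was within the error (SE 0.27, limma adjusted p = 0.909), with a 95% interval of -0.64 to 0.54 that leaves a sizeable change in either direction within reach of the error. Without control library 5 it was -0.31 (limma adjusted p = 0.226).

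The start region of Fabp1 is shown because it alone among the windows of these genes held a direct repeat of the kind PPARs bind, with 1 free base, in a gene whose level was not called. RefSeq promoter windows were found for 9 of the 10 genes. The Fabp1 window is at chr6:71199629-71199928 on the plus strand of GRCm38.p6, with the direct repeat and TATAAA in capitals.
Fabp1: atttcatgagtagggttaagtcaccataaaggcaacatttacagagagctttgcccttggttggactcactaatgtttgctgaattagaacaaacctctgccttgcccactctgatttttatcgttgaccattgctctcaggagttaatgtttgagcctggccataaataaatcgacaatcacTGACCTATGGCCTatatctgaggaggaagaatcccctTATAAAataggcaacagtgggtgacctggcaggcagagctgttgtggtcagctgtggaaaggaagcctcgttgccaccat
The capitals TGACCTATGGCCT, at -67 to -55 from the start, match AGGNCANAGGTCA on the other strand. On both strands, that motif was in 31 of 32851 windows (0.0944%). The stricter AGGTCANAGGTCA was in 13 windows (0.0396%) and in 0 windows of these genes. TATAAA, searched on the gene strand, lay at -30 to -25 in Fabp1 and was in 8.32% of all windows. The single unit AGGTCA, which also lies within both repeats, was in windows of Slc27a2, Cd36, Fabp1 and Pparg and in 16.3% of all windows on both strands. A match is a description of these letters only.

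Fabp2, the intestinal-type binding protein, which mouse liver also expresses, had 48.5 to 61.6 FPKM in the controls and 43.5 to 69.9 FPKM in the labelled knockdown libraries. The ranges overlapped, and the 95% interval of the log2 fold change was -0.26 to 0.26 (limma adjusted p = 0.992). Fabp4, the binding protein of adipocytes and macrophages, had 2.11 to 3.17 and 2.16 to 2.87 FPKM. It was not called either (limma adjusted p = 0.572; 95% interval -0.30 to 0.13). Fabp5 and Fabp7, the 2 tested genes of the other binding proteins, stood at 12.7 and 10.6 FPKM and at 6.28 and 5.34 FPKM in the control and labelled knockdown means, with limma adjusted p of 0.396 and 0.495. Fabp1 made up 91.9% of the summed FPKM of the Fabp family in the controls and 92.5% in the labelled knockdown libraries.

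Enzymes that act beside or after these synthetases were also read. Of 9 tested acyl-CoA synthetases outside the 10, 0 rose and 0 fell, with a median log2 fold change of -0.16; Acsm1, a medium-chain synthetase, had means of 73.9 and 65.3 FPKM (limma adjusted p = 0.531). Of 16 acyl-CoA binding proteins and thioesterases, 1 fell and 0 rose, with a median of 0.03. Acot9, a mitochondrial thioesterase, fell without overlap from 6.69 ± 0.161 to 4.70 ± 0.943 FPKM (limma adjusted p = 0.0232, log2 fold change -0.45). Its call was lost without control library 2 or 3, at adjusted p of up to 0.0533. Over all 64 tested genes of the pathway lists outside the 10, 10 fell and 1 rose, against 9.65% and 7.13% of all genes tested, and the median log2 fold change was -0.16.

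**Figure D4:**
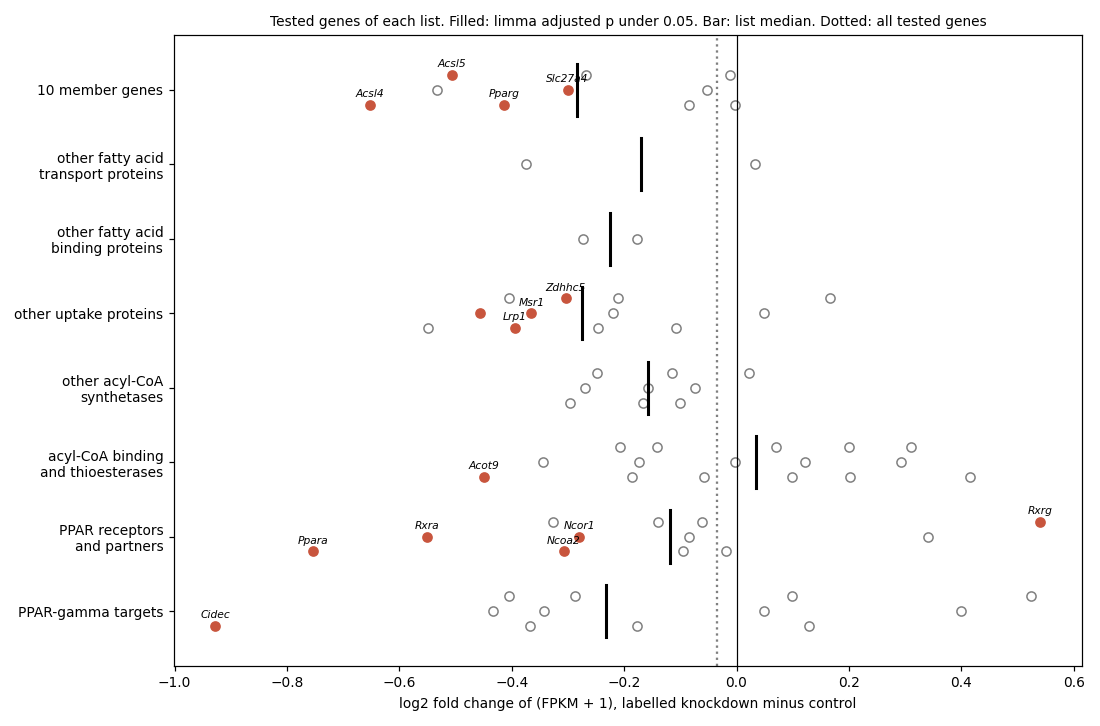
Log2 fold change of FPKM + 1, labelled knockdown minus control, of each tested gene (points) in the 10 genes and the 7 pathway lists, with the list median (bar) and the median of all genes tested (dotted line); filled points have a limma adjusted p under 0.05. The list of uptake genes has 4 of 12 filled points below 0, and the list of other acyl-CoA synthetases has 0 of 9. Over all genes tested, 9.65% were called lower, and the lists were not compared with each other.

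The length trend bears on these genes, because their longest annotated transcripts ranged from 553 bases for Fabp1 to 5280 bases for Acsl4. Where a gene has several transcripts, such as Fabp4 (4231 bases for the longest), its class rests on that choice. Tested genes were split by length into 5 classes of near equal size. Among genes in the class of longest transcripts, which holds Acsl4, 16.6% were called lower. In the next class, which holds Acsl5, Slc27a4, Fabp4 and Acsl3, 14.2% were, and in the middle class, which holds Cd36 and Slc27a2, 10.5% were. The class below it, which holds Pparg, had 5.65%. Fabp1 and Fabp2 belong to the class of shortest transcripts, in which 2.08% were called lower. With the length trend removed, 3 of the 10 genes were called lower (Acsl4, Acsl5 and Pparg), beside 5.46% of all genes fitted. The log2 fold changes of Acsl4 and Acsl5 were then -0.54 and -0.41 (limma adjusted p = 0.0400 and 0.0474).

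**Figure D5:**
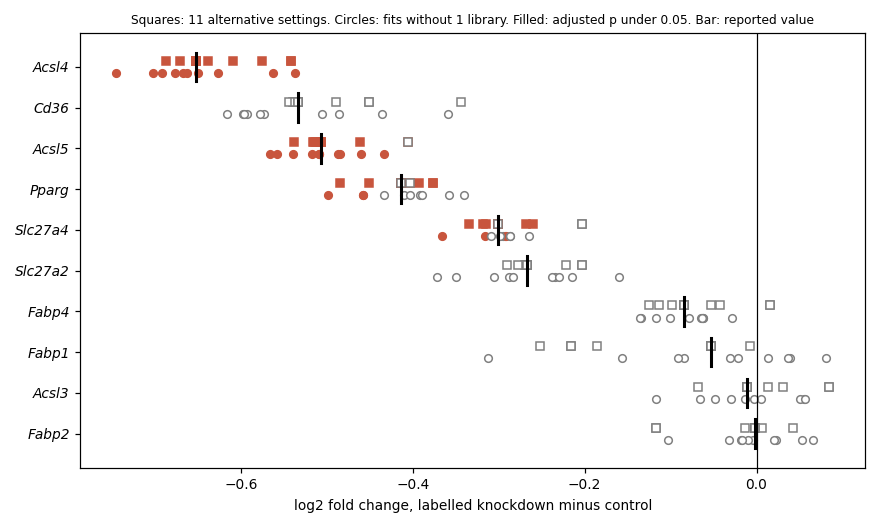
Log2 fold change, labelled knockdown minus control, of the 10 genes under 11 other settings (squares) and in 10 fits that each left out a library (circles), filled where the limma adjusted p was under 0.05, with the reported value as a bar. Acsl4 and Acsl5 pass under 10 of 11 other settings, Pparg under 8 and Slc27a4 under 7, and Cd36 under 0.

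Markers of the cells that can express these genes were read beside them, and the lists were not compared with each other. Of 9 tested Kupffer cell markers, 2 fell (Adgre1 from 6.63 to 3.01 FPKM and Cd5l from 53.1 to 25.8 FPKM). In log2 fold change, 8 of the 9 were below 0, with a median of -0.40. The summed FPKM of the Kupffer cell list ranged from 231 to 333 in the controls and from 179 to 266 in the labelled knockdown libraries. Sums here cover every listed gene found. They therefore also hold Timd4 for Kupffer cells and Rbp7 and Vwf for endothelium, which were not tested. Of 9 lipid-associated macrophage markers, which include genes expressed with Fabp4 and Cd36 in macrophages, 0 were called and 8 were below 0. Their median log2 fold change was -0.16, with sums of 302 to 653 and 155 to 471 FPKM. That list holds Lgals3, the target named in the labels, which at 0.075 was above 0. It also holds Lpl, read above as an uptake gene. Of 8 endothelial markers 1 fell (median -0.25), with sums of 17.4 to 31.4 and 15.7 to 23.1 FPKM, and of 8 stellate cell markers 3 fell (median -0.22), with sums of 79.7 to 99.98 and 49.7 to 95.2 FPKM. The part of these cells in the values of Cd36, Pparg, Acsl4 and Msr1 was not tested. Of 9 hepatocyte markers 3 fell (Apob, Cps1 and Hnf4a) and 1 rose (Ttr), with a median log2 fold change of 0.09. Among all genes tested, 9.65% were called lower and 7.13% higher. The marker counts were not tested against these shares, and the length trend was not removed from them. The adipocyte markers Adipoq, Cfd and Cidea were at or near 0, with sums of 0 to 0.256 and 0 to 0.168 FPKM.

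The libraries also allow each gene to be followed across all 10 libraries and across the spread within groups. Over all 10 libraries, Pparg and Cd36 on log2(FPKM + 1) had a Pearson's r of 0.84 (permutation p = 0.0017, adjusted over 9 relations 0.0150). Spearman's rho was 0.92 (adjusted permutation p = 0.0049). Both genes had lower means in the labelled knockdown group, so these values include the difference between the groups. Without labelled knockdown library 5 and control library 2, the farthest from the median of Pparg, r was 0.89. On departures from group means, r was 0.71 and rho 0.65. The exact permutation p of that r was 0.0301, and at 0.271 adjusted over the 9 relations it did not pass. Without control library 3 and labelled knockdown library 5 that r was 0.29, so the relation within groups rests on those libraries. The other 8 relations of Pparg over the 10 libraries did not pass, with the smallest adjusted p, 0.120, for Slc27a4 and Acsl4.

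By departures from group means over the 10 libraries, the genes most like each were searched among 10371 genes, as a description. Acsl4 ran closest to Nomo1, Spin1 and Gspt1 (r = 0.98, 0.97 and 0.97), and Acsl5 to Mavs, Mlf2 and Dnajc22 (0.93, 0.92 and 0.92). Slc27a4 ran closest to Pafah1b1, Dbnl and the pseudogene Actr3-ps (0.98, 0.95 and 0.95), and Pparg to Dnajc18, Fam76b and Synj2 (0.90 each). Cd36, not called, ran closest to Lpl, Rnf128 and Tnks (0.95 each). All points share their library and its depth, and the highest r among so many genes is high by choice.

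In the authors' deposited table, 4 of the 10 genes had a q-value under 0.05, beside 8.84% of all 29657 genes. That share also covers genes of very low level, since only 13471 passed the filter on low values, as all 10 did. The 4 were Acsl4 (deposited ratio 0.620, q = 0.00377), Acsl5 (0.701, q = 0.0116), Pparg (0.709, q = 0.0259) and Slc27a4 (0.795, q = 0.0427). Cd36 had a ratio of 0.697 and a q of 0.0993 in the authors' deposited table. None of the 10 was among the 398 genes that the authors' deposited table marks as significant.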

How the data were processed

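The deposited table gave, per the file headers, FPKM per gene and library, and the authors' own comparison: a fold ratio, its log2 value, a p-value and a q-value, from a test that the sources used here do not name. Cutadapt 1.9, HISAT2 2.0.4 and StringTie 1.3.4d were used, per the submitters' processing notes. The build named there is human, while the identifiers are mouse, so the mouse build behind the values is not known. Libraries were poly(A)-selected and dUTP-stranded, per the labels' protocols; whether the counting used strand is not stated, so genes with an antisense partner are uncertain.

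Sample titles gave the groups and the replicate numbers. A count model was the first choice, but the file held no counts: low values stepped as if from 15.4 to 19.3 M (mega) fragments in a library, yet only 8.72 to 10.3% were whole multiples (tolerance 0.02). Genes with at least 0.5 FPKM in at least 5 libraries (13471) were tested as log2(FPKM + 1), which understates changes of low genes, with limma 3.58.1 in R 4.3.3 (mean-variance trend, no covariates, two-sided, Benjamini-Hochberg, threshold 0.05). Single values used the exact two-sided permutation over 252 assignments, and correlations 1e+05 resamples or exact pairings. Lengths were of the longest GENCODE transcript, for 97.9% of tested genes; a spline with 4 degrees of freedom removed the trend. In simulated data with independent noise and no length trend, the fit recovered 62% of 1.5-fold changes and 89.7% of 2-fold changes. Of its calls there, 3.4% were false. No batch that splits the libraries is given, 0 library pairs were identical and 0 sample columns went unused. Same-numbered libraries correlated at -0.0145 to 0.114, so numbers were not used as pairs.

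The 10 genes, the lists and the tests were chosen with earlier results of these data known. Named from the lists were the called genes with the smallest p, up to 4 per list, or its 2 genes of highest mean FPKM where none was called, and the 3 genes most correlated with each called gene and Cd36; some listed genes are not in the table and were not analysed here, and 1 called uptake gene is not reported here by name. Alternatives were pseudocounts of 0.5 and 0.1, no filter or a minimum of 1 FPKM, median-of-ratios and quantile scaling, array weights, no trend, a replicate block, removal of the length trend, and leaving out each library.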

Additional observations from a re-analysis of the deposited data

Results flagged for a closer look

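Within a group of 5 libraries, 6 of 70 sets of values had 1 library far from the rest, where chance gives about 1 in 20. Acsl4 was high in control library 5, at 30.7 FPKM, where the other control libraries had 19.0 to 21.4 FPKM. Its share of the Acsl family was likewise high there, at 26.4% against 15.0 to 18.3%. In the labelled knockdown group the share of Acsl4 was high in library 4, at 17.9% against 12.8 to 14.2%. Fabp2 made up 11.7% of the Fabp family in control library 5, against 3.75 to 5.47% in the other control libraries. In that library Fabp1, the largest part of the family sum, was at 447 FPKM, against 842 to 1330 FPKM in the other controls. Fabp2 itself was at 61.6 FPKM, against 48.5 to 52.5 FPKM. Acsm1 was low in control library 5, at 46.5 FPKM against 74.3 to 85.3 FPKM. Ncor1 was low in labelled knockdown library 5, at 4.60 FPKM against 5.45 to 5.81 FPKM.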

How the results depend on the processing

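The direction of Cd36, Pparg, Slc27a2, Slc27a4, Acsl4 and Acsl5 held under all 11 other settings and in all 10 fits that left out a library. Over all genes, the numbers called higher and lower were 960 and 1300; with no filter they were 511 and 682. The number lower was 2047 with array weights, 720 with the length trend removed and 680 with a replicate block and the length trend removed. Of the 10 genes, 4 were lower; the count was 1 with no filter, 2 with the replicate block, and 1 with the block and the length trend removed. In the pathway lists, 1 was higher and 10 were lower. There, 3 were higher with array weights and 2 with the length trend removed, and 2 were lower with no filter, 3 with the length trend removed and 2 with the block and length removal. The cause of these shifts was not tested.

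Values near 0 changed sign. Fabp2 was at 0.043 under median-of-ratios and 0.0063 under quantile scaling, and Acsl3 at 0.030 and 0.014. With the length trend removed, with or without the replicate block, Fabp4 was at 0.015, Acsl3 at 0.085 and Acsl1 at 0.011 (log2).

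Leaving out each library gave 442 to 966 genes higher, 549 to 1736 lower, and 2 to 4 of the 10 genes lower. Of these, 2 were lower without control library 2 or 4 or labelled knockdown library 1, 3 or 5. The pathway lists gave 1 to 2 higher and 2 to 11 lower. Log2 fold changes ranged from -0.093 to 0.26 for Lgals3, -0.31 to 0.081 for Fabp1, -0.10 to 0.066 for Fabp2, -0.12 to 0.057 for Acsl3, -0.37 to -0.16 for Slc27a2, -0.022 to 0.16 for Slc27a1 and -0.19 to 0.024 for Acsl1. Differences in family share, in percentage points, ranged from -1.09 to 1.34 for Fabp1, -0.79 to 1.22 for Fabp2, -0.047 to 0.013 for Fabp4, -0.19 to 3.42 for Slc27a2 and -0.28 to 0.21 for Slc27a4.

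Same-numbered libraries did not deviate together, and only replicate 1 correlated best with its own number in both groups. FPKM carries no counting interval, so precision rests on the spread between 5 libraries a group, and Fabp4, at 2.11 to 3.17 FPKM, has the lowest level of the 10 genes.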
